A study of Rattus norvegicus with 12 samples.

Results

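The extracellular matrix of the liver was examined through its messenger RNAs: collagens, laminins, other matrix proteins, the enzymes that cross-link them, the matrix metalloproteinases (MMPs) that cut them and the tissue inhibitors that block those enzymes. Members were chosen by name. Every row was taken whose gene name began like that of a collagen chain, a laminin chain, an MMP or a lysyl oxidase. The same was done for tissue inhibitors of metalloproteinases (Timp). Rows named Sparc, Bgn, Dcn, Lum, Fn1, Fbn1, Eln, Nid1, Vim, Des, Tgfb1 or Ctgf were also taken. Col4a3bp and Loxhd1 were taken for their letters only and are no collagen chain or lysyl oxidase. The names took 141 transcript rows of 79 genes, and 71 genes had a transcript above 0 in at least 1 liver. These 71 genes are the members, out of 15270 genes above 0 in the whole table, and each was represented by its most abundant transcript. The other 8 genes, Col2a1, Col19a1, Loxhd1, Mmp1a, Mmp1b, Mmp8, Mmp20 and Mmp27, were listed at 0 in all 12 livers. No row carried the name Col4a2, Col15a1, Col18a1, Lama4, Lamb1, Lamb2 or Mmp2, so the members are part of the matrix genes only.

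The livers came from female inbred alcohol-preferring rats (iP10a), a line bred for high voluntary drinking. The 6 EtOH rats had free access to 10%, 20% and 30% ethanol beside water for 23 weeks, and the 6 control rats had water only. All rats were 38 weeks old except EtOH rat 6, which was 39 weeks old. The labels name no transgene or other treatment in either group, 1 library was made from each liver, and intake was each animal's own choice, so the dose was not fixed.

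The matrix is a scaffold that cells secrete around themselves. Fibrillar collagens form rope-like fibres, collagen IV and laminins form the sheet-like basement membranes, and small proteoglycans and glycoproteins bind both. In the healthy liver the matrix in the space between hepatocytes and the sinusoidal blood vessels is thin, and stellate cells, which store vitamin A, are known as the main source of new fibrillar collagen when the liver scars. Hepatocytes themselves secrete fibronectin into the plasma.

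Abundance was given as RPKM, that is, mapped reads scaled to transcript length and to the size of the library, so levels of different genes can be set side by side. Levels below are RPKM as deposited. Fold changes are differences of group means of quantile-normalized log2(RPKM + 0.5), from a limma fit over all 21718 transcripts above 0 in at least 1 liver, and adjusted p-values are Benjamini-Hochberg values over all of them with 0.05 as the threshold. Because the fold change is taken after normalization and after adding 0.5, it can differ from the plain ratio of the RPKM means and understates the change of low genes. The whole reads behind the RPKM numbered 2610238 to 4318141 in the controls and 3945593 to 6030028 in the EtOH livers, so the EtOH libraries were mostly deeper. As a check of the tissue, albumin (Alb) stood at 70350 RPKM in controls and 79080 RPKM in EtOH livers.

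Of the 71 members, 3 were called, all higher in EtOH: Sparc, Col1a2 and Col3a1. That is 4.23% of the members, where 2.42% of all transcripts tested were called in either direction and 1.13% were called higher. No member was called lower, where 1.29% of all transcripts were. With so few calls the share of members is close to the background and is not a result about the whole set. At an unadjusted p under 0.05, 17 members were higher (23.9%, against 8.07% of all transcripts) and 3 were lower (4.23%, against 7.42%). With the transcripts of each gene summed, Eln, Col4a4, Col12a1 and Mmp28 left the 17, while Timp2 and Col4a3bp joined. The median log2 fold change over the 71 members was 0.11, against 0.00 over all transcripts. Among the 29 members with a mean of at least 1 RPKM the median was 0.31 and 24 had a fold change above 0, while over the 11086 transcripts at or above that level the median was 0.01 and 51.2% were above 0. These are counts and medians and not tests of the set.

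**Figure D1:**
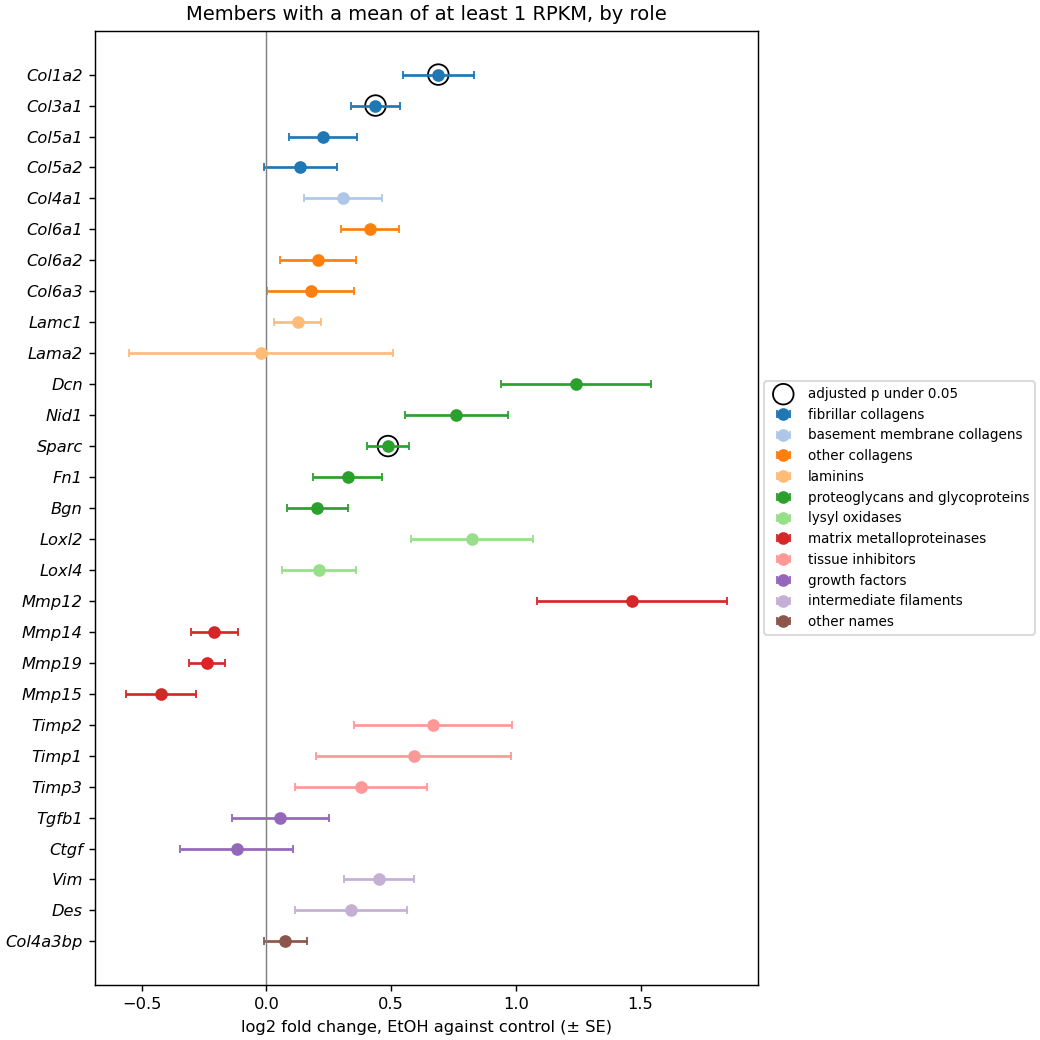
Log2 fold change of EtOH against control (horizontal axis, ± SE, 6 livers a group) for the 29 members with a mean of at least 1 RPKM, coloured and grouped by role. Circles mark the 3 members past the threshold, and the metalloproteinases Mmp14, Mmp15 and Mmp19 lie to the left of 0.

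Promoter sequences are shown for the called members that the RefSeq table of the GRCr8 build holds, Sparc and Col1a2, and for Mmp12, whose ratio between the groups is described further on. Each runs 5′ to 3′ on the gene's strand from 250 bases before to 50 bases after the annotated start. Capitals mark matches to any of 5 motifs, each searched on both strands. The TATA motif was written TATAAA and the binding motif of nuclear factor Y was written CCAAT. The motif of Sp1 was written GGGCGG, that of AP-1 was written TGANTCA, and that of the Smad proteins was written CAGAC. Sparc lies at chr10:40038767-40039066 on the minus strand, Col1a2 at chr4:33518307-33518606 on the plus strand and Mmp12 at chr8:12866402-12866701 on the plus strand.
Sparc: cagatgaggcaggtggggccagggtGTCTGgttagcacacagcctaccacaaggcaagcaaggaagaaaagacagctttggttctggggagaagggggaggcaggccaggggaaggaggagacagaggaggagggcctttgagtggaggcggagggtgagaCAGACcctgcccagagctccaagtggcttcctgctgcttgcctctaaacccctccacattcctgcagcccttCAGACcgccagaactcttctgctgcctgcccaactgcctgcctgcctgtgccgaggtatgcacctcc
Col1a2: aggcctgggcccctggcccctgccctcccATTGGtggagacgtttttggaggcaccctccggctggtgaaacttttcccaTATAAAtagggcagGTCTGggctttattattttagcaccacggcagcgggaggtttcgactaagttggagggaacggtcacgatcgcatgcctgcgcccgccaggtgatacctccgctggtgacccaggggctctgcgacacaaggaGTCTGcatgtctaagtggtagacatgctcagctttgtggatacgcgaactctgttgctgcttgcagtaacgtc
Mmp12: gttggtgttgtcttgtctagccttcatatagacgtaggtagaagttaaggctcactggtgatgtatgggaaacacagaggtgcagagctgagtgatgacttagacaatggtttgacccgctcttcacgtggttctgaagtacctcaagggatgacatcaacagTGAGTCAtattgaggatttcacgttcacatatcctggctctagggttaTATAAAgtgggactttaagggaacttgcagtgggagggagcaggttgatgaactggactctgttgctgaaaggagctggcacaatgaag

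The Col1a2 window holds CCAAT on the minus strand at bases -221 to -217 and TATAAA at -170 to -165, counted from the annotated start, and CAGAC on the minus strand at -156 to -152 and -23 to -19. The Sparc window holds CAGAC at -225 to -221 on the minus strand and at -89 to -85 and -17 to -13 on the plus strand, with neither TATAAA nor CCAAT. The Mmp12 window holds TGANTCA at -87 to -81 and TATAAA at -39 to -34. The table held a promoter for 53 members, and not for Col3a1, Dcn, Eln, Fn1 or Mmp19. TATAAA occurred in 18.9% of those 53 and in 14.2% of all 33469 promoters, CCAAT in 26.4% and 37.5%, GGGCGG in 56.6% and 33.1%, TGANTCA in 11.3% and 7.33%, and CAGAC in 45.3% and 50.1%. Each member counted with a single promoter, whereas the 33469 were not reduced to a single promoter per gene, so the shares come from unlike sets. CAGAC is short, so it occurs often, and these matches are descriptions of letters only.

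Fibrillar collagens were represented by 9 members, of which 2 rose in EtOH and none fell, where 1.13% of all transcripts were called higher and 1.29% lower. Their summed level was 25.3 to 31.2 RPKM in controls and 29.4 to 39.8 RPKM in EtOH livers. Col3a1, the chain of type III collagen, was by far the most abundant collagen among the members. Its lowest, median and highest levels were 17.3, 19.3 and 21.7 RPKM in controls and 20.3, 22.8 and 27.9 RPKM in EtOH livers. The EtOH range lay above the controls except for EtOH liver 6, which fell inside the control range. The means were 19.5 ± 1.85 and 23.9 ± 3.01 RPKM (SD, n = 6 each), with a log2 fold change of 0.44 ± 0.10 (SE) and an adjusted p of 0.0393. The gene is listed on chromosome 9 from 44281582 to 44317827 in the coordinates of the deposited table, and no source used here names the build of those coordinates.

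Col1a2, the minor chain of type I collagen, had the largest ratio among the 3 called members. Control livers ran from 2.25 through a median of 2.53 to 3.55 RPKM, and EtOH livers from 3.15 through 4.63 to 5.00 RPKM. Control liver 1 and EtOH liver 6 were the only livers to lie inside the other group's range. The means were 2.69 ± 0.453 and 4.45 ± 0.682 RPKM, a ratio of 1.65, with a log2 fold change of 0.69 ± 0.14 and an adjusted p of 0.0281 (chromosome 4, 29393551 to 29428568 in the table).

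Col1a1, the major chain of type I collagen, was sequenced thinly, with 44 reads over all controls and 129 over all EtOH livers. Its level was 0.457 ± 0.363 RPKM in controls and 0.955 ± 0.322 RPKM in EtOH livers, with a log2 fold change of 0.62 ± 0.24 and an adjusted p of 0.22. It was not called, and it is singled out here after its values were seen because it pairs with Col1a2 in the same fibre. Type I collagen protein is built from more alpha-1 than alpha-2 chains. On RPKM Col1a2 stood above Col1a1 in all 12 livers, by 2.99-fold to 37.4-fold per liver. The highest ratio, in control liver 4, rested on 1 Col1a1 read. Why the RPKM order differs from that of the protein chains was not tested. Of the type V chains, which seed fibrils, Col5a1 stood at 2.33 and 2.74 RPKM with a log2 fold change of 0.23, and Col5a2 at 1.83 and 2.02 RPKM with 0.14. The remaining fibrillar chains, Col27a1, Col24a1, Col5a3 and Col11a2, averaged below 1 RPKM, and none was called.

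The calls on Col1a2 and Col3a1 were lost in most of the fits that left out a liver, while the log2 fold changes stayed positive. Leaving out control liver 2, 4 or 5 or any of EtOH livers 1 to 5 took Col1a2 over the threshold, with adjusted p between 0.0529 and 0.0711, and the same livers and control liver 3 did so for Col3a1, with adjusted p between 0.0632 and 0.0869. Col1a2 was called in 13 of 14 other settings. Col3a1 was called in 6 of 14. Among the settings that ended its call were no normalization between livers (adjusted p 0.104), median scaling (0.0662), no mean-variance trend (0.0584), voom on recovered reads (0.0621), reads thinned to the depth of the shallowest liver (0.0834) and the unmoderated test on square-root values, both with a quantile step (0.0717) and without one (0.142). The log2 fold change of Col3a1 stayed between 0.28 and 0.50 and that of Col1a2 between 0.61 and 0.84 on the log2 scale.

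**Figure D2:**
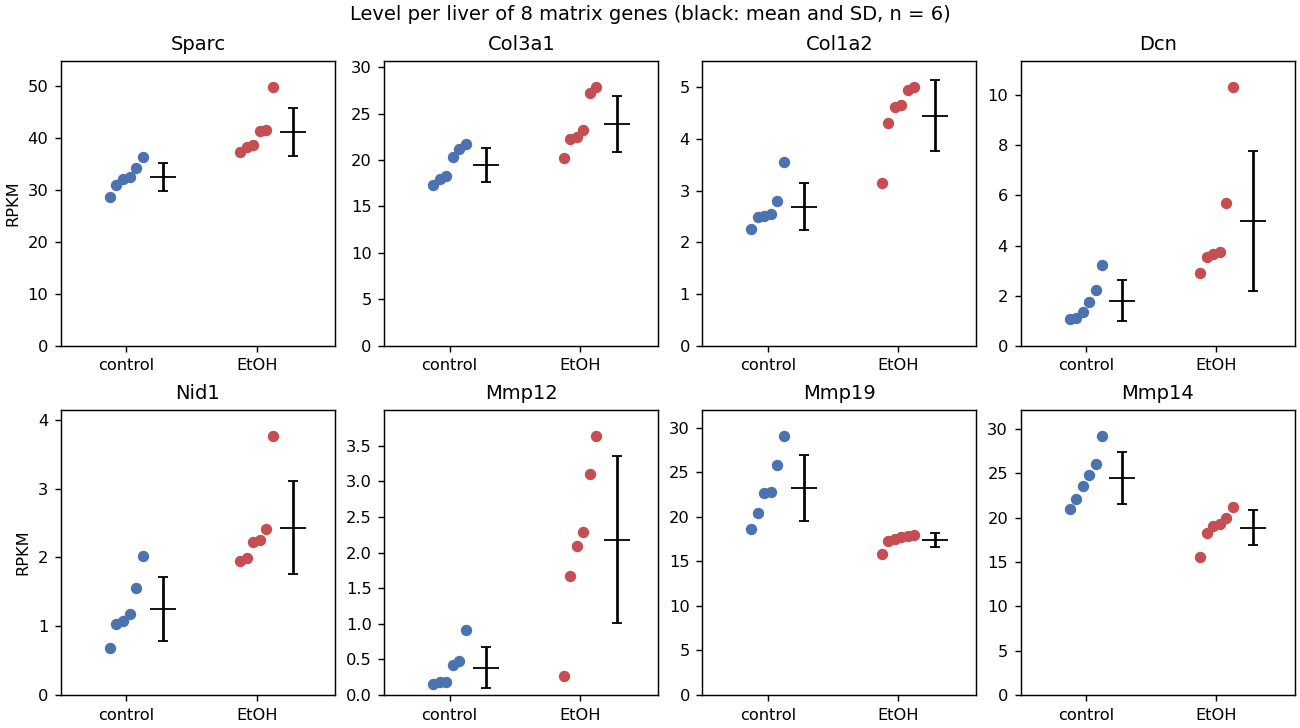
RPKM (vertical axis, from 0) of 8 members in each of 6 control (blue) and 6 EtOH (red) livers, with the mean and SD in black. Sparc and Mmp19 show no overlap between the groups, and Mmp12 is low in every control and in a single EtOH liver.

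Basement membrane collagens were represented by 4 members, all chains of collagen IV, and none was called. Col4a2, Col15a1 and Col18a1 were not found by name, so these 4 stand for part of the group only. Col4a1, part of the common collagen IV network, ran from 3.04 through 3.36 to 4.56 RPKM in controls and from 3.32 through 4.20 to 5.67 RPKM in EtOH livers, with a log2 fold change of 0.31. The groups overlapped widely. Col4a3, a chain of specialised membranes, had the smallest p of the group at 0.0990 ± 0.0739 and 0.296 ± 0.137 RPKM, with a log2 fold change of 0.34 ± 0.13 and an adjusted p of 0.214, on 11 and 47 reads.

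Other collagens numbered 14, with 10 fold changes above 0, 4 below 0 and no call. The 3 above 1 RPKM were the chains of collagen VI, a beaded microfibril near cell surfaces. Col6a1 was the most abundant, from 6.01 through 7.16 to 9.59 RPKM in controls and from 8.01 through 9.11 to 11.4 RPKM in EtOH livers. Control livers 1 and 3 lay inside the EtOH range, and the log2 fold change was 0.41 ± 0.12 with an adjusted p of 0.0935, falling to 0.0450 when control liver 1 was left out. Col6a2 stood at 5.66 and 6.07 RPKM with a log2 fold change of 0.21, and Col6a3 at 0.954 and 1.14 RPKM with 0.18. In every liver Col6a1 exceeded Col6a2 and Col6a2 exceeded Col6a3.

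Laminins, the cross-shaped trimers of basement membranes, were represented by 7 members, and neither the 4 positive nor the 3 negative fold changes passed the test, the log2 values running from -0.02 to 0.13. Lamc1, a gamma chain shared by most laminins, was the most abundant at 3.08 ± 0.313 and 3.29 ± 0.342 RPKM, with a log2 fold change of 0.13 ± 0.09 and an adjusted p of 0.591. Its range was 2.70 to 3.63 RPKM in both groups, with medians of 3.07 and 3.35 RPKM. Lama2 was listed at 0 in control liver 5 and EtOH liver 3 and averaged 1.27 and 1.44 RPKM, with a log2 fold change of -0.02 that turned positive under several settings.

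Proteoglycans and glycoproteins had all 8 fold changes above 0, a median log2 fold change of 0.63 and 6 of 8 at an unadjusted p under 0.05 and higher, where 8.07% of all transcripts were. Of these 8, 1 was called. The values are those of each gene's most abundant transcript over both groups. For Eln that row led only through the EtOH livers, since another Eln row was higher in controls (0.188 against 0.173 RPKM) and at 0 in EtOH. With transcripts summed, the unadjusted p of Eln was 0.0751, so the count of 6 depends on that choice. The other transcript of Fbn1, fibrillin, went from 39 to 7 reads, and with both summed the log2 fold change of Fbn1 was 0.21 in place of 0.51 (adjusted p 0.648). Sparc, a secreted calcium-binding glycoprotein also known as osteonectin, binds fibrillar collagens. Its levels ran from 28.7 through 32.4 to 36.4 RPKM in controls and from 37.3 through 40.05 to 49.9 RPKM in EtOH livers. Every EtOH liver was above every control liver, as for 0.677% of all transcripts, and the same held for the normalized levels, as for 1.33% of all transcripts. The means were 32.5 ± 2.65 and 41.2 ± 4.59 RPKM, with a log2 fold change of 0.49 ± 0.08 and an adjusted p of 0.0142 (chromosome 10, 40809740 to 40831496 in the table). Sparc stayed called whichever liver was left out, with log2 fold changes of 0.43 to 0.52, and the highest liver, EtOH 1, was not needed for the call (adjusted p 0.0121 without it). Sparc was called in 13 of 14 other settings and lost its call in the unmoderated test on square-root values without a quantile step (adjusted p 0.0632).

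Fn1, fibronectin, was the most abundant member of all at 77.2, 109 and 131 RPKM (lowest, median, highest) in controls and 104, 123 and 134 RPKM in EtOH livers. Most livers shared a range, and the log2 fold change of Fn1 was 0.33 ± 0.14 with an adjusted p of 0.276. Bgn, biglycan, a small leucine-rich proteoglycan, was next at 43.2 and 45.1 RPKM with a log2 fold change of 0.20. Dcn, decorin, a relative of biglycan that coats collagen fibrils, ran from 1.09 through 1.57 to 3.22 RPKM in controls and from 2.90 through 3.70 to 10.3 RPKM in EtOH livers. Its ratio of means was 2.77 and its log2 fold change 1.24 ± 0.30, but its adjusted p of 0.0517 missed the threshold. Control liver 1 was the sole control above the lowest EtOH liver, and EtOH liver 1 was the highest of all. Without EtOH liver 1 the log2 fold change of Dcn was 1.02 (adjusted p 0.0667), without control liver 1 it was 1.38 (adjusted p 0.0356), and without EtOH liver 6 it was 1.37 (adjusted p 0.0496). Dcn was called in 6 of 14 other settings, among them reads thinned to the shallowest liver (adjusted p 0.0267).

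Nid1, nidogen, which ties laminin to collagen IV, stood at 1.26 ± 0.466 and 2.43 ± 0.676 RPKM with a log2 fold change of 0.76. Control liver 6 was the only control above the lowest EtOH liver, and the adjusted p of Nid1 was 0.0786, or 0.0350 without control liver 6. Eln and Lum lie outside the rule for named genes and were picked after their values were seen. Eln, elastin, the rubber-like protein of vessel walls, was at 0.173 ± 0.208 and 1.00 ± 0.569 RPKM on 11 and 85 reads, with a log2 fold change of 1.08 ± 0.28 and an adjusted p of 0.0682. That row is 1 of several Eln transcripts, and with all of them summed the levels were 0.555 and 1.09 RPKM, the log2 fold change 0.54 and the adjusted p 0.392. The single Eln row was called without EtOH liver 6, the lowest EtOH liver (adjusted p 0.0488). Lum, lumican, was listed at 0 in 4 controls and was above 0 in every EtOH liver, on 4 and 30 reads, with a log2 fold change of 0.77 ± 0.25 and an adjusted p of 0.136.

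Lysyl oxidases, copper enzymes that cross-link collagen and elastin, numbered 5, all with fold changes above 0 and none called. Loxl4 was the most abundant, from 6.79 through 7.94 to 9.71 RPKM in controls and from 5.37 through 9.39 to 9.72 RPKM in EtOH livers. A single EtOH liver, number 1, lay below all others, and the remaining EtOH livers lay between 8.72 and 9.72 RPKM. Loxl2 had the smallest p, at 0.756 ± 0.340 and 1.77 ± 0.749 RPKM, with a log2 fold change of 0.82 ± 0.25 and an adjusted p of 0.108. EtOH livers 5 and 6 lay just below the highest control, control 5.

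Matrix metalloproteinases, zinc enzymes that cut collagens and other matrix proteins, numbered 15, with 8 fold changes above 0, 7 below 0 and no call. The 3 most abundant were lower in EtOH on average, and the 3 members with an unadjusted p under 0.05 and a negative fold change were these same genes. The summed RPKM of the MMPs was 56.5 to 70.9 in controls and 44.3 to 51.9 in EtOH livers. On that same scale, without normalization between livers, the median log2 fold change over all transcripts of at least 1 RPKM was -0.08.

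Mmp14, a membrane-bound collagenase that also activates other MMPs, ran from 21.0 through 24.2 to 29.2 RPKM in controls and from 15.5 through 19.2 to 21.2 RPKM in EtOH livers, with a log2 fold change of -0.21 ± 0.09 and an adjusted p of 0.309. A pair of livers, control 3 and EtOH 6, overlapped. Mmp19 ran from 18.6 through 22.7 to 29.1 RPKM in controls and from 15.8 through 17.6 to 18.0 RPKM in EtOH livers. Every EtOH liver was below every control on the deposited scale, as for 2.43% of all transcripts, but after quantile normalization the ranges of Mmp19 overlapped. Its means were 23.2 ± 3.74 and 17.4 ± 0.806 RPKM, with a log2 fold change of -0.24 ± 0.07 and an adjusted p of 0.105 (chromosome 7, 2091532 to 2099236 in the table). Mmp15, another membrane-bound MMP, stood at 12.3 and 8.24 RPKM with a log2 fold change of -0.42. Without normalization Mmp14 (adjusted p 0.0462, log2 fold change -0.36) and Mmp19 (0.0381, -0.40) passed the threshold, and Mmp19 did so also without control liver 6 (0.0438), the lowest of the controls.

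Mmp12, the macrophage elastase, had the largest log2 fold change of all members, 1.47 ± 0.38, without passing the test (adjusted p 0.0683). The 6 controls held 15 of its reads in all and the 6 EtOH livers 111. Levels ran from 0.149 through 0.301 to 0.906 RPKM in controls and from 0.271 through 2.19 to 3.63 RPKM in EtOH livers. In EtOH livers 1 to 5 Mmp12 was at or above 1.67 RPKM, higher than every control, while EtOH liver 6, on 2 reads, was within the control range. Leaving out EtOH liver 6 gave a log2 fold change of 1.80 with an adjusted p of 0.0092, and leaving out control liver 6, the highest control, gave 1.62 with 0.0495. Mmp12 was also called with no normalization between livers (adjusted p 0.0489) and with transcripts under a mean of 0.1 RPKM left out (0.0452), and not with reads thinned to the shallowest liver (0.141).

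Mmp28 was listed at 0 in all controls and held 5 reads over 5 EtOH livers. That is 1.22-fold higher when the controls are set at 3 reads over the group. The 5 reads carry counting error of their own, so 1.22 is not a lower bound. Another Mmp28 transcript held 1 read in the controls and none in EtOH, and summed over transcripts the adjusted p of Mmp28 was 0.844. On the single row the adjusted p was 0.0738, and Mmp28 was called without EtOH liver 5, the EtOH liver at 0 (adjusted p 0.0284). The remaining 10 MMPs averaged below 1 RPKM.

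Tissue inhibitors of metalloproteinases, which bind MMPs and block them, numbered 4, with 3 fold changes above 0, 1 below 0 and no call. Timp2 ran from 0.740 through 3.03 to 4.42 RPKM in controls and from 3.00 through 4.32 to 6.22 RPKM in EtOH livers, with a log2 fold change of 0.67 ± 0.32 and an adjusted p of 0.340. Timp3, which is bound to the matrix, stood at 3.06 and 3.92 RPKM with a log2 fold change of 0.38, and Timp1, known to rise in scarring liver, at 1.57 and 2.29 RPKM with 0.59. Timp1 was listed at 0 in control liver 4 and lay at or above 1.39 RPKM in the other 11. The summed level of the 4 inhibitors was 5.59 to 9.45 RPKM in controls and 8.80 to 13.3 RPKM in EtOH livers.

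The growth factors Tgfb1, a main inducer of collagen genes, and Ctgf, a matricellular protein it induces, were not called. Tgfb1 ran from 2.59 through 4.21 to 5.67 RPKM in controls and from 2.43 through 4.08 to 5.55 RPKM in EtOH livers, with a log2 fold change of 0.055 ± 0.19 that turned to -0.016 with no normalization between livers (Tgfb1). The log2 fold change of Ctgf was -0.12 ± 0.23 with an adjusted p of 0.832, at 2.06 and 1.83 RPKM. The intermediate filaments Vim, found in mesenchymal cells, and Des, a stellate and muscle cell filament, had fold changes above 0 and were not called. Vim ran from 6.31 through 8.50 to 11.6 RPKM in controls and from 9.47 through 10.5 to 14.8 RPKM in EtOH livers, with a log2 fold change of 0.45 ± 0.14 and an adjusted p of 0.123. Des stood at 0.852 and 1.30 RPKM with a log2 fold change of 0.34. Col4a3bp, taken for its letters only, encodes a ceramide transfer protein and not a matrix protein. It ran from 7.44 through 8.83 to 10.4 RPKM in controls and from 7.54 through 8.67 to 9.72 RPKM in EtOH livers, with a log2 fold change of 0.08 ± 0.09 and an adjusted p of 0.691.

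**Figure D3:**
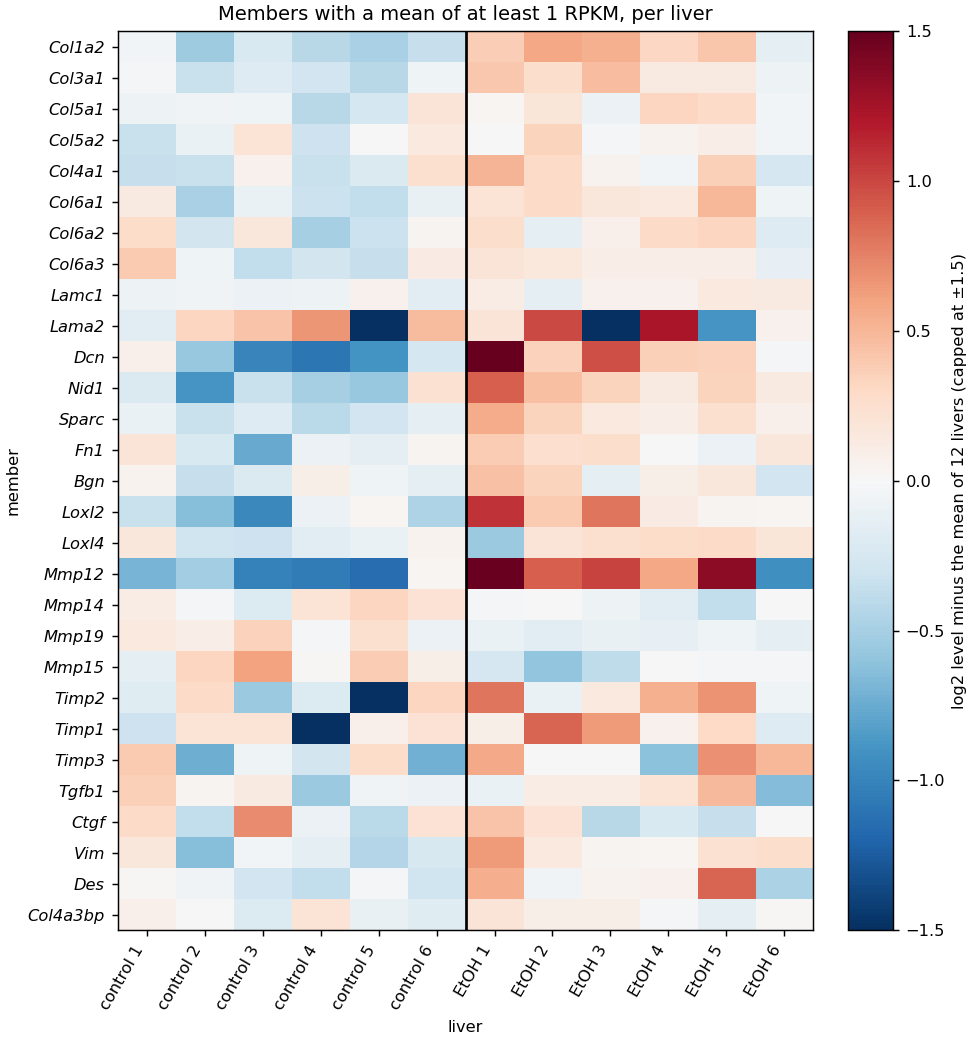
Quantile-normalized log2(RPKM + 0.5) of the 29 members with a mean of at least 1 RPKM (rows, by role) in the 12 livers (columns), each row minus its mean over the livers and capped at 1.5 either way. EtOH liver 1 is the highest of the 12 livers for 10 of the 29 members and EtOH liver 5 for 7.

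The livers of a group differed among themselves. On normalized levels EtOH liver 1 was the highest of the 12 for 10 of the 29 members with a mean of at least 1 RPKM, and EtOH liver 5 for 7. EtOH liver 6 and control livers 2 and 6 were the highest for none. Control liver 2 was the lowest for 6 and control liver 4 for 5. Leaving out EtOH liver 6 or control liver 6 raised the number of called members from 3 to 6, and leaving out control liver 1 raised it to 5. Leaving out control liver 2, 4 or 5 or EtOH liver 1, 2, 3 or 4 left Sparc as the only called member.

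On normalized log2 levels over the 12 livers, Col3a1 was set beside Col1a1, Col1a2, Sparc, Vim and Des, and Col1a1 beside Col1a2, making 6 relations. Col1a2 and Col3a1 moved together most closely, with Pearson's r of 0.93 (permutation p adjusted over the 6 relations 0.00018) and Spearman's rho of 0.94 (0.00036). Without the 2 livers farthest from the median of Col1a2, r was 0.92. Within the controls r of Col1a2 with Col3a1 was 0.83 (exact permutation p 0.0431) and within the EtOH livers 0.79 (exact permutation p 0.0458), so the relation held inside both groups before adjustment.

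Col3a1 and Sparc gave r of 0.89 and rho of 0.91 (adjusted permutation p 0.00048 and 0.00036), or 0.92 without the 2 extreme livers, and 0.81 and 0.57 within controls and EtOH livers (exact permutation p 0.0639 and 0.240). Col3a1 and Vim gave r of 0.74 and rho of 0.69 (adjusted permutation p 0.0109 and 0.0259), or 0.76 without the 2 extreme livers, with 0.74 and 0.15 within the groups (exact permutation p 0.0917 and 0.785). Col1a1 and Col3a1 gave r of 0.70 and rho of 0.69 (adjusted permutation p 0.0176 and 0.0259), or 0.67 without the 2 extreme livers, with 0.35 and 0.53 within the groups (exact permutation p 0.481 and 0.296). Col1a1 and Col1a2 gave r of 0.68 and rho of 0.63 (adjusted permutation p 0.0199 and 0.0370), or 0.65 without the 2 extreme livers, with 0.45 and 0.19 within the groups (exact permutation p 0.371 and 0.703). Col3a1 and Des gave r of 0.51 and rho of 0.62 (adjusted permutation p 0.0949 and 0.0370), or 0.41 without the 2 extreme livers, with -0.12 and 0.37 within the groups (exact permutation p 0.793 and 0.476). When each group's mean was taken out, 1 of the 6 relations, Col1a2 with Col3a1, remained past the threshold, with r of 0.80 (adjusted permutation p 0.0075).

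**Figure D4:**
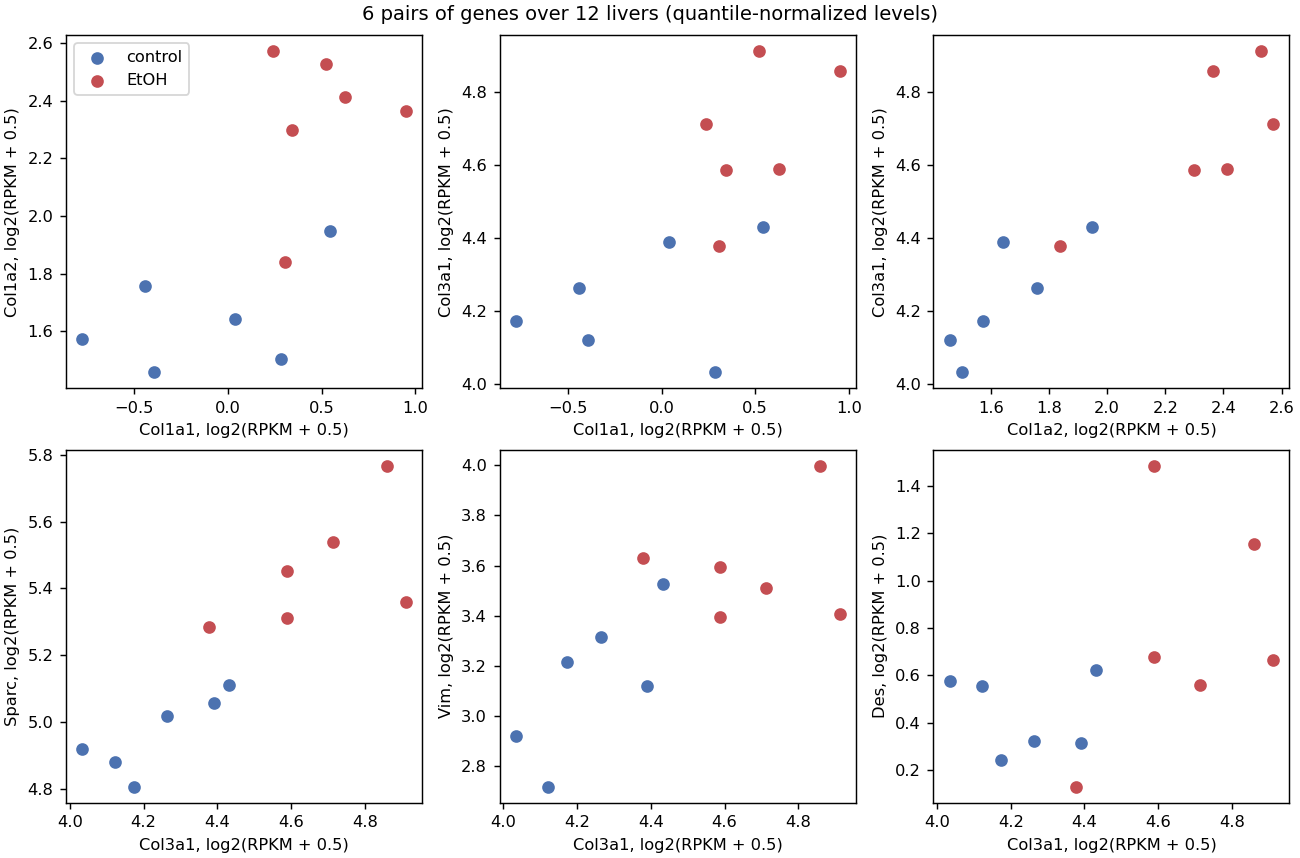
Quantile-normalized log2(RPKM + 0.5) of the 6 pairs of genes in 6 control (blue) and 6 EtOH (red) livers. Col1a2 and Col3a1 lie along a line within each colour, whereas Col1a1 with Col1a2 and Col3a1 with Des scatter widely.

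The same fit was read for 13 lists of other genes around the matrix and of cell type markers, 220 genes in all, of which 176 were found. Over all transcripts 1.13% were called higher and 1.29% lower, against which each count below can be set. The counts are not tests of a list. Among genes that modify and secrete collagen, 1 of 20 tested was called. This was Serpinh1, the collagen chaperone HSP47, at 7.21 ± 0.485 and 9.29 ± 1.33 RPKM with a log2 fold change of 0.44 ± 0.10 and an adjusted p of 0.0456. Among other matrix glycoproteins and proteoglycans 2 of 22 rose and 1 fell. Ccdc80, a matrix-associated protein, rose from 11.5 to 15.4 RPKM (log2 fold change 0.54, adjusted p 0.00493), and Ogn, osteoglycin, a leucine-rich proteoglycan, from 3.03 to 4.73 RPKM (0.62, 0.0361). Tsku, tsukushi, a secreted leucine-rich proteoglycan made by hepatocytes, fell from 235 ± 71.2 to 51.1 ± 20.3 RPKM. Its log2 fold change was -2.06 ± 0.25 with an adjusted p of 0.00215. Every EtOH liver was below every control for Tsku on the deposited scale, as for 2.43% of all transcripts.

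Among 20 collagen and laminin receptors Sdc3, a membrane heparan sulfate proteoglycan, rose from 3.57 to 5.58 RPKM (log2 fold change 0.65, adjusted p 0.0318). Among 22 other matrix proteases and inhibitors 2 rose. Ctsb, the lysosomal protease cathepsin B, went from 259 to 281 RPKM (log2 fold change 0.20, adjusted p 0.0134), and Serpine2, an inhibitor of serine proteases, from 6.95 to 9.09 RPKM (0.48, 0.0194). In the TGF-beta and CCN pathway 1 of 20 rose, Ski, a repressor of Smad signalling, from 11.3 to 14.6 RPKM (log2 fold change 0.51, adjusted p 0.0394). Of these 8 genes, Ccdc80, Tsku and Ctsb stayed called whichever liver was left out, although Ctsb was not called with no normalization between livers (adjusted p 0.355), and the others lost the call in 1 to 9 of the 12 fits that left out a liver. Of 14 other settings Ccdc80 and Tsku were called in 14, Serpine2 in 13, Sdc3 in 11, Ogn and Ctsb in 10, Ski in 6 and Serpinh1 in 5.

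Markers of the cells that make or meet the matrix were read in the same fit, and in whole liver more cells of a type cannot be told apart from more RNA per cell. Of 9 Kupffer cell and macrophage markers all had fold changes above 0 and 3 rose, Vsig4 (16.3 to 20.3 RPKM, adjusted p 0.00342), Clec4f (66.4 to 82.5 RPKM, 0.0246) and Cd163 (6.19 to 9.38 RPKM, 0.0427), and the summed level was 195.5 to 301.5 RPKM in controls and 257.6 to 318 RPKM in EtOH livers. Of 6 sinusoidal endothelial markers all had fold changes above 0 and Cdh5 rose (3.78 to 5.08 RPKM, adjusted p 0.0490), with a summed level of 55.7 to 67.6 against 63.0 to 86.1 RPKM. The other 8 of the 14 listed, among them Stab1, Stab2 and Mrc1, were not found by name, so these 6 stand for part of the list only. Of 15 stellate cell markers 12 had fold changes above 0 and 2 rose, Hgf (2.67 to 4.94 RPKM, adjusted p 0.0424) and Steap4 (11.6 to 15.0 RPKM, 0.0394), while the summed level was 257.3 to 340.3 RPKM in controls and 292.9 to 317.2 RPKM in EtOH livers.

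Of 6 activated myofibroblast markers tested all had fold changes above 0, with a median log2 fold change of 0.52, and none was called, Pdgfra having the smallest p (2.46 to 3.86 RPKM, log2 fold change 0.63, adjusted p 0.0516), and the summed level was 13.96 to 30.5 RPKM in controls and 22.1 to 38.6 RPKM in EtOH livers. The defining marker Acta2 was not found by name, and Postn was at 0 in the controls and at 0.0114 RPKM in EtOH livers. Of 9 portal fibroblast and mesothelial markers Dpt fell (333 to 250.5 RPKM, log2 fold change -0.31, adjusted p 0.0319), with a summed level of 340 to 448.1 against 284.3 to 335.8 RPKM. That sum is mostly Dpt itself and Gas6 (63.4 to 54.9 RPKM, not called), the other 7 markers lie below 4 RPKM each, and 4 of the 9 fold changes were above 0. Of 12 lymphocyte markers Cd79a was listed at 0 in all controls and stood at 0.433 RPKM in EtOH livers (adjusted p 0.0393), with a summed level of 4.87 to 7.64 against 5.29 to 10.5 RPKM. Of 9 hepatocyte markers Cps1 rose (586 to 850 RPKM, adjusted p 0.0224), and the median log2 fold change of the list was 0.00. That median falls on Alb and Tf, both at 0.00. Quantile normalization gives the most abundant transcripts nearly the same value in every liver, so it does not show that hepatocyte markers were unchanged. On deposited levels Apob went from 513 to 644.5 RPKM and Asgr1 from 352.5 to 293 RPKM, neither called. Of 5 cholangiocyte markers none was called, Cftr having the smallest p (adjusted p 0.671), with a summed level of 4.49 to 8.65 against 4.09 to 8.11 RPKM. Vsig4 stayed called whichever liver was left out, Cps1 in 8 and Clec4f in 7 of the 12 fits, and the other called markers in 1 to 3. Of the other settings Vsig4 stayed called in 14 of 14, Cps1 in 13, Clec4f in 11, Hgf in 10, Dpt in 9, Cd163 and Cdh5 in 8 and Steap4 in 6. Cd79a stayed called in 10 of 13 and was not called with reads thinned to the shallowest liver (adjusted p 0.315), the control libraries being mostly the shallower ones. The part of any of these cells in the levels of the matrix genes was not tested.

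**Figure D5:**
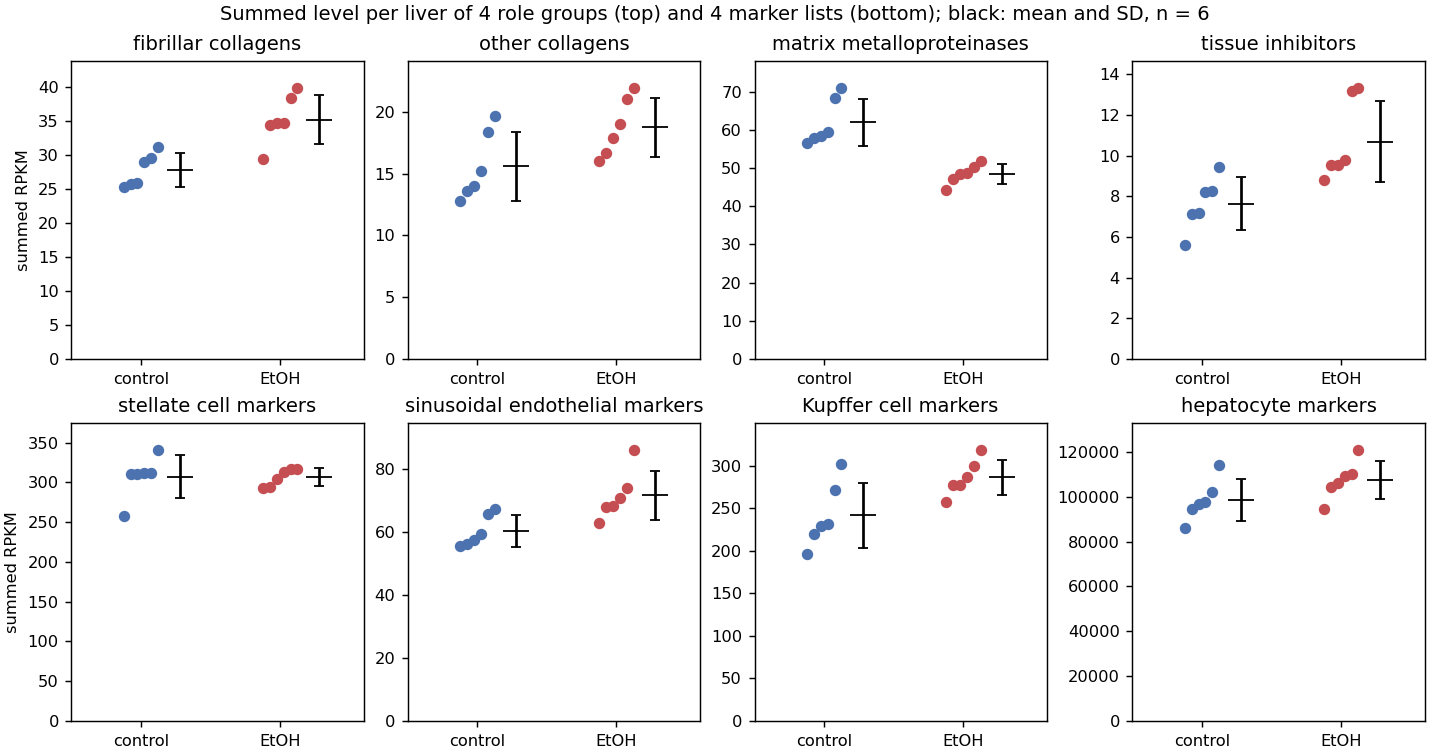
Summed RPKM per liver (vertical axis, from 0) of 4 role groups of members (top) and 4 marker lists (bottom) in 6 control (blue) and 6 EtOH (red) livers, with the mean and SD in black. The summed metalloproteinases do not overlap between the groups on this deposited scale, and the stellate cell sums share a range.

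The members' other transcripts numbered 48, and none was called. The second Fn1 transcript was nearly as abundant as the first, at 84.0 and 91.9 RPKM, with a log2 fold change of 0.29. The second Sparc transcript was read only in EtOH livers 3 and 5, with 54 reads in all, and its adjusted p was 0.464. Reads shared between transcripts of a gene may have been split by the counting, so the levels of a single transcript are less certain than those of the gene, and with transcripts summed the same 3 members were called.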

How the data were processed

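Poly(A) RNA of 12 livers (6 control, 6 EtOH) was sequenced as paired-end reads with all libraries in a single lane. RPKM were deposited by the authors, who computed them in CLCbio Genomics Workbench, and no source used here names the genome build. The authors' own fold changes, test statistics, p-values and FDR values were not used. RPKM were set to log2(RPKM + 0.5), quantile normalized and fitted in limma 3.58.1 (R 4.3.3) with a mean-variance trend, two-sided. Of 34391 transcripts, the 21718 that a liver held above 0 were tested, and p-values were adjusted by Benjamini-Hochberg. Whole reads behind the RPKM were recovered for all 21718 within 0.01 read, assuming that the smallest steps of a row are whole reads. Counting error limits the precision of low genes, and it was not separated from differences among animals. The script was tested on simulated data. Permutations numbered 100000 over 12 livers and were exact within groups. Genes were named if called, without overlap between groups, at a mean of at least 1 RPKM or smallest in p in a role group, and, in the other lists, if called or smallest in p. Lum, Eln, Mmp28 and Col1a1 were named after their values were seen. The members and lists were chosen with earlier results of these data known. Alternatives changed the pseudocount, normalization, scale, filter, trend, transcript choice, depth and set of livers.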

Additional observations from a re-analysis of the deposited data

Results flagged for a closer look

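In 6 cases a liver lay apart from the other 5 of its group, by the gap to its neighbour divided by the group's range exceeding Dixon's 95% critical value. Among 72 groups of 6 tested, chance alone flags about 1 in 20. Sparc was at 49.9 RPKM in EtOH liver 1 against 37.3 to 41.7 in the others (0.655), Nid1 at 3.77 RPKM in EtOH liver 1 against 1.95 to 2.42 (0.741), and Loxl4 at 5.37 RPKM in EtOH liver 1 against 8.72 to 9.72 (0.769), so 3 of the 6 cases fell in that liver. Mmp19 was at 15.8 RPKM in EtOH liver 2 against 17.3 to 18.0 (0.687), Timp1 at 0 in control liver 4 against 1.39 to 2.08 RPKM (0.670), and Mmp28 at 0 in EtOH liver 5 against 0.0946 to 0.144 RPKM (0.656), the last on a single read in each of the others.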

How the results depend on the processing

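The number of called members was 3 and became 7 with no normalization between livers (5 higher, 2 lower), 5 with a mean of at least 0.1 RPKM or at least 1 RPKM required, and 1 to 6 when a liver was left out. Calls over all transcripts numbered 526 and became 322 with the unmoderated test on square-root quantile-normalized values, 860 with a mean of at least 1 RPKM, 346 with thinned reads, an alternative chosen after seeing the data, and 212 to 656 when a liver was left out. The split of 245 higher and 281 lower became 126 and 648 with no normalization and 194 and 337 with median scaling. The median log2 fold change of the members was 0.11 and became 0.22 with pseudocount 0.1, 0.17 with median scaling, 0.21 and 0.30 with the filters at 0.1 and 1 RPKM, 0.38 with voom on recovered reads and 0.16 with thinned reads, against 0.11 to 0.16 when a liver was left out. It has no value on the square-root scale. Of the 6 relations 5 passed, and 1 with group means removed. With the replicate number as a block 1 member (Sparc) and 113 transcripts were called, Col1a2 (adjusted p 0.109) and Col3a1 (0.1) not among them, but deviations of same-numbered livers correlated at -0.07 to 0.03 and no liver matched its own number best, so the numbers do not pair the animals. Signs turned for Col4a3bp (-0.025 with no normalization, -0.029 on unmoderated square-root values without a quantile step), Tgfb1 (-0.016 and -0.012 in these, -0.052 to 0.19 when a liver was left out), Ctgf (-0.216 to 0.011 when a liver was left out) and Lama2 (0.005 with pseudocount 1, 0.043 with median scaling, 0.010 on both quantile-normalized square-root fits, 0.020 without the quantile step, 0.18 with transcripts summed, -0.36 to 0.31 when a liver was left out). The cause was not tested. At 2610238 to 6030028 reads a liver, the 21 members under 20 reads in all could show no modest change.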
